A study of Mus musculus with 4 samples.

Results

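The lysyl oxidase family was followed in immortalized mouse fibroblasts transfected for 48 h with miRNAs of the miR-200 family and given hydrogen peroxide. The members were the 5 genes Lox, Loxl1, Loxl2, Loxl3 and Loxl4, taken by symbol from the platform annotation, and they were represented by 8 of 46632 probes and by 5 of 17711 named genes. The data comprised 4 Illumina bead arrays in 4 groups with 1 array per group. The groups were cells given miR-141, cells given miR-200c, cells given a control miRNA, and cells labelled as transfectant only, whose transfection field reads none. All 4 cultures shared the peroxide, at 400 µM for the final 2 h, so its own effect was not compared. Strain, tissue of origin and the miRNA dose were not given in the labels.

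Lysyl oxidases are secreted, copper-dependent amine oxidases. They convert lysines of collagen and elastin into reactive aldehydes, which then condense into the crosslinks that make collagen fibrils and elastic fibres stiff and insoluble. Lox and Loxl1 are made as proenzymes whose propeptides are removed outside the cell by proteases of the BMP1/tolloid group, while Loxl2, Loxl3 and Loxl4 carry scavenger receptor cysteine-rich domains in front of the shared catalytic domain. Fibroblasts are a main source of these enzymes, and the miR-200 family is best known for lowering the repressors Zeb1 and Zeb2 and with them the mesenchymal state.

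The miRNA sequences are shown because the seed, bases 2 to 8 from the 5′ end, determines which transcripts a miRNA pairs with. The transfected arm was not given in the labels, and the 3p arms shown here are those that carry the family's known seeds. They are RefSeq's mature sequences, on the minus strand of chr6:124717917-124717938 for miR-141-3p and chr6:124718324-124718346 for miR-200c-3p (GRCm38.p6), with the seed in capitals.
mmu-miR-141-3p: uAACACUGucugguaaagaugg
mmu-miR-200c-3p: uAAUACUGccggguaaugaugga
Counted from the 5′ end, with the miR-141-3p base first, the seeds differ by C4U. Further differences along the shared length are U9C, U11G and A17U. Seed matches in the members' transcripts were not analysed here.

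Signal on the arrays was normalized to a common distribution and put on the log2 scale, and a probe counted as detected on an array at a detection p-value under 0.01. Raw signals had a mean of 198 with miR-141, 190 with miR-200c, 151 in control miRNA and 246 in transfectant only, so raw values of different arrays are not on one scale. Of 17711 genes, 7734 were detected on at least 1 array and 6485 on all 4. A call with a miRNA required a difference from both controls, in 1 direction, of 0.58 (1.5-fold) or more on the log2 scale, among the genes detected with that miRNA or in both controls. These are the genes considered below. With 1 array per group no test between groups was possible, no difference below has a replicate check, and precision is limited by the number of arrays. Over the 6485 genes detected everywhere, the standard deviation of the log2 difference between the control arrays was 0.30. Fewer cells that express a gene and less of its RNA per cell cannot be told apart in these bulk samples.

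Of the 10 fibroblast markers examined, Col1a1, Pdgfrb, S100a4, Vim and Dcn were detected in both controls, while Col1a2, Col3a1, Thy1, Pdgfra and Lum were below detection on every array. Of these 5 detected markers, 2 were called lower with miR-141 (S100a4 and Pdgfrb), and 3 were called lower (S100a4, Pdgfrb and Col1a1) and 1 higher (Dcn) with miR-200c. The shares over all considered genes were 3.14% lower with miR-141, and 4.55% lower and 4.07% higher with miR-200c. The log2 difference of S100a4 from control miRNA was -0.93 on the miR-141 array and -1.36 on the miR-200c array, that of Dcn was 2.15 on the miR-200c array, and Pdgfrb was below detection on both miRNA arrays. The summed normalized signal of the 10 fibroblast markers, on the linear scale and with undetected ones included, was 14444 with miR-141 and 12014 with miR-200c, against 16592 in control miRNA and 16647 in transfectant only. Most of this sum on every array was Vim, which was not called with either miRNA, so it says little about the other markers. Of 10 epithelial markers, 4 were detected with miR-141 and 4 with miR-200c, against 1 in control miRNA and 1 in transfectant only. The same sum over the 10 epithelial markers was 461 with miR-141 and 1007 with miR-200c, against 283 in control miRNA and 262 in transfectant only. Krt7, Krt8 and Cldn4, below detection in both controls, were called higher with both miRNAs. Krt19, detected on every array, was called higher with miR-200c only. Over all considered genes, 2.37% were higher with miR-141 and 4.07% with miR-200c. Cdh1, Epcam, Krt5, Krt14, Krt18 and Cldn3 were below detection on every array. The 4 macrophage markers with a named probe were below detection throughout. Endothelial markers had 1 of 6 detected with miR-141 and 2 of 6 on each other array, and muscle markers had 1 of 6 detected in control miRNA and 0 elsewhere. The part of these markers in the values below was not tested.

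The first comparisons ask how the family's transcripts differed in stressed fibroblasts given either miRNA, and the detected members did not move together. Lox was lower with miR-200c, Loxl2 was lower with miR-141, Loxl4 was higher with both, Loxl1 was below both controls with each miRNA but met no call, and Loxl3 was below detection on all 4 arrays. With miR-141, 1 of the 4 members considered was called lower, where 3.14% of 7188 genes were, and 1 was called higher, where 2.37% were. With miR-200c the counts were again 1 lower and 1 higher of 4, against 4.55% and 4.07% of 7202 genes. Counts of this size say little about the family as a whole, and the members are therefore described gene by gene.

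**Figure D1:**
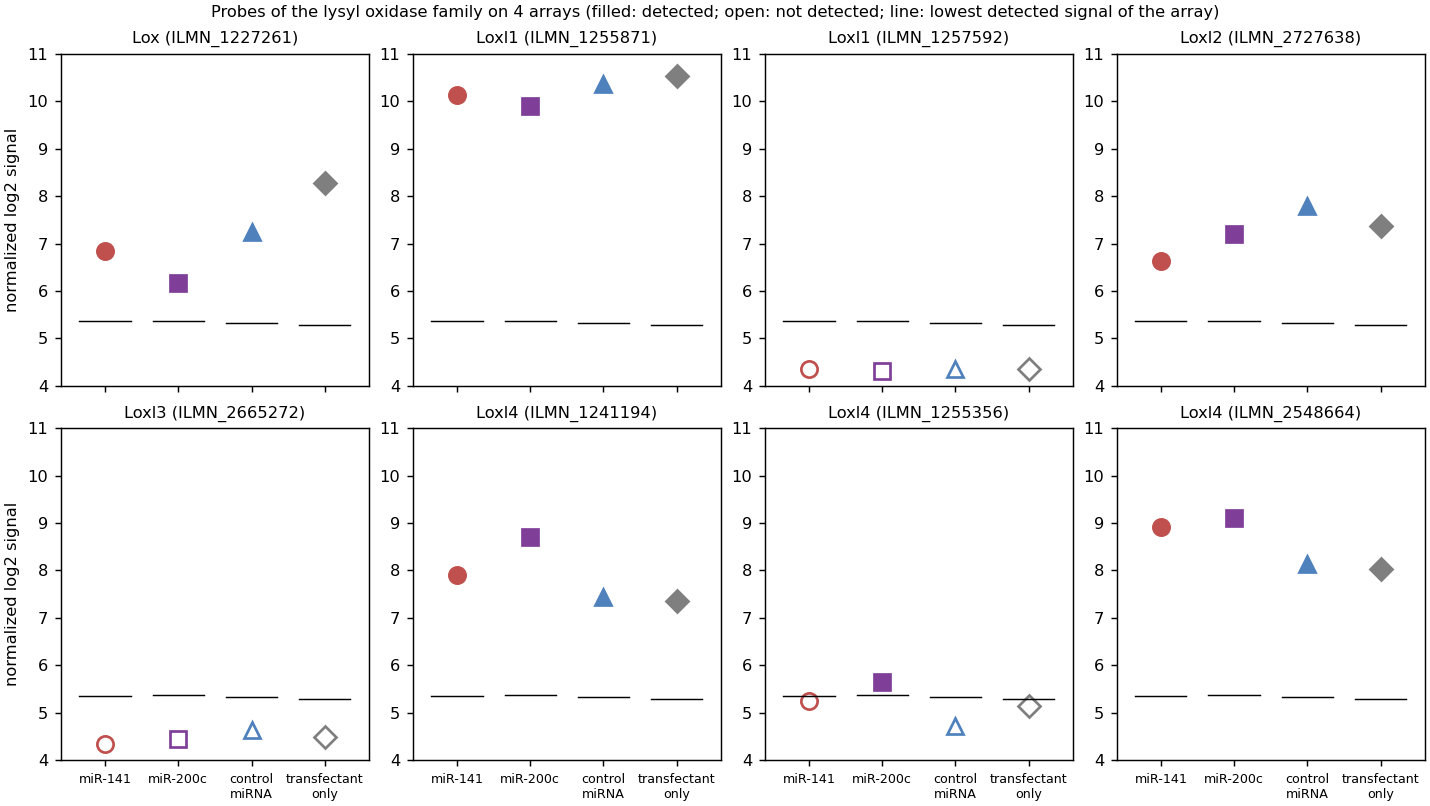
Normalized log2 signal of the 8 lysyl oxidase probes on the 4 arrays, 1 point per array, filled where the probe was detected and open where it was not; the short black lines mark the lowest detected signal of each array. Lox runs from 6.18 with miR-200c up to 8.29 in transfectant only, all 3 Loxl4 probes are highest with miR-200c, and the Loxl3 probe and the second Loxl1 probe lie under the lines everywhere.

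Lox encodes the founding member, which crosslinks fibrillar collagen and elastin. Its probe had raw signals of 139 with miR-141 and 95.6 with miR-200c, against 127 in control miRNA and 462 in transfectant only, and was detected on every array. After normalization the log2 signals were 6.84 with miR-141 and 6.18 with miR-200c, against 7.25 in control miRNA and 8.29 in transfectant only. Both miRNA arrays thus lay below both control arrays, with miR-200c lowest. The level with miR-200c was 2.11-fold lower than in control miRNA (log2 difference -1.08) and 4.32-fold lower than in transfectant only (-2.11), which met the rule for a lower gene. Of the 7202 genes considered, 84 (1.17%) were as low as Lox or lower by the smaller of the 2 differences.

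With miR-141, Lox did not meet the rule. Its log2 difference was -0.41 when set against control miRNA and -1.45 when set against transfectant only, so the size of the difference depended on which control was taken. The controls themselves were far apart for this gene. In control miRNA, Lox was 2.05-fold lower than with transfectant only (-1.04), a gap reached in the same direction by 21 of 7509 genes (0.280%), Lox included. Between these arrays 1 of 4 detected members was called lower, where 4.51% of genes were, and 0 were called higher, where 3.16% were. Lox also had a range over the 4 arrays of 2.11, which only 19 of 6485 genes (0.293%) matched or passed, Lox among them. The difference of miR-200c from control miRNA was thus about as large as that between the controls.

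Loxl1 is known from mice lacking it for the upkeep of elastic fibres. Its brighter probe gave raw signals of 1143 with miR-141 and 967 with miR-200c, against 916 in control miRNA and 2048 in transfectant only. The normalized log2 signals were 10.13 with miR-141 and 9.90 with miR-200c, against 10.37 in control miRNA and 10.54 in transfectant only. The arrays stood in the same order as for Lox, over a range of only 0.64 that 22.4% of genes detected everywhere matched or passed. The log2 differences of miR-141 were -0.25 from control miRNA and -0.42 from transfectant only. With miR-200c they were -0.47 and -0.64, and neither miRNA met the rule. The second Loxl1 probe, named from the same transcript record, was not detected on any array and carries no information on the level.

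Loxl2 acts on collagen IV of basement membranes as well as on fibrillar collagen, and its human counterpart has been tied to the mesenchymal state of tumour cells. The single Loxl2 probe had raw signals of 123 with miR-141 and 169 with miR-200c, against 174 in control miRNA and 256 in transfectant only. Normalized log2 signals were 6.63 with miR-141 and 7.20 with miR-200c, against 7.80 in control miRNA and 7.37 in transfectant only. Here miR-141 was the lowest array, unlike for Lox, and control miRNA the highest. Loxl2 was 2.25-fold lower with miR-141 than in control miRNA (log2 difference -1.17) and 1.68-fold lower than in transfectant only (-0.75). Of 7188 genes considered, 132 (1.84%) were as low or lower by the smaller difference.

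With miR-200c, Loxl2 differed by -0.60 from control miRNA and by -0.18 from transfectant only. The second of these was under the 1.5-fold size and the gene was not called. The controls differed by 0.43 for this gene, with control miRNA the higher, which is more than the 0.18 that separated miR-200c from transfectant only.

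Loxl3, whose loss in mice disturbs the palate and spine, had raw signals of 37.2 with miR-141 and 40.4 with miR-200c, against 45.7 in control miRNA and 48.2 in transfectant only. Its lowest detection p-value was 0.134, in control miRNA, so its only probe was not well above background in these fibroblasts and no fold is given. An undetected probe does not show that a gene is off, since the Loxl1 probes differed in detection in the same cells.

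Loxl4, a member with scavenger receptor domains like Loxl2, was the family member that was higher with the miRNAs. Its brightest probe had raw signals of 509 with miR-141 and 567 with miR-200c, against 213 in control miRNA and 385 in transfectant only. The normalized log2 signals were 8.91 with miR-141 and 9.11 with miR-200c, against 8.14 in control miRNA and 8.02 in transfectant only. Both miRNA arrays lay above both controls, and the controls differed by 0.11. The level with miR-141 was 1.71-fold that of control miRNA (log2 difference 0.77) and 1.85-fold that of transfectant only (0.89). With miR-200c it was 1.96-fold (0.97) and 2.13-fold (1.09). By the smaller difference, 87 of 7188 genes (1.21%) were as high or higher with miR-141 and 101 of 7202 (1.40%) with miR-200c.

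Loxl4 was the only member with more than 1 informative probe. A second probe, named from the cDNA record AK078840, was detected on all arrays at log2 signals of 7.90 with miR-141 and 8.71 with miR-200c, against 7.44 in control miRNA and 7.36 in transfectant only. For miR-200c its differences of 1.27 and 1.34 were larger than those of the brightest probe. For miR-141 they were 0.46 and 0.54, in the same direction but under the 1.5-fold size, so the miR-141 call rests on the brightest probe. The third probe was detected only with miR-200c, at a raw signal of 73.6 and a detection p-value of 0.00624. It was at least 1.24-fold higher there than in control miRNA and at least 1.28-fold higher than in transfectant only, where the dim side was set to the lowest detected signal of its array or to its own value, whichever was higher. All 3 probes therefore had their highest value with miR-200c.

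**Figure D2:**
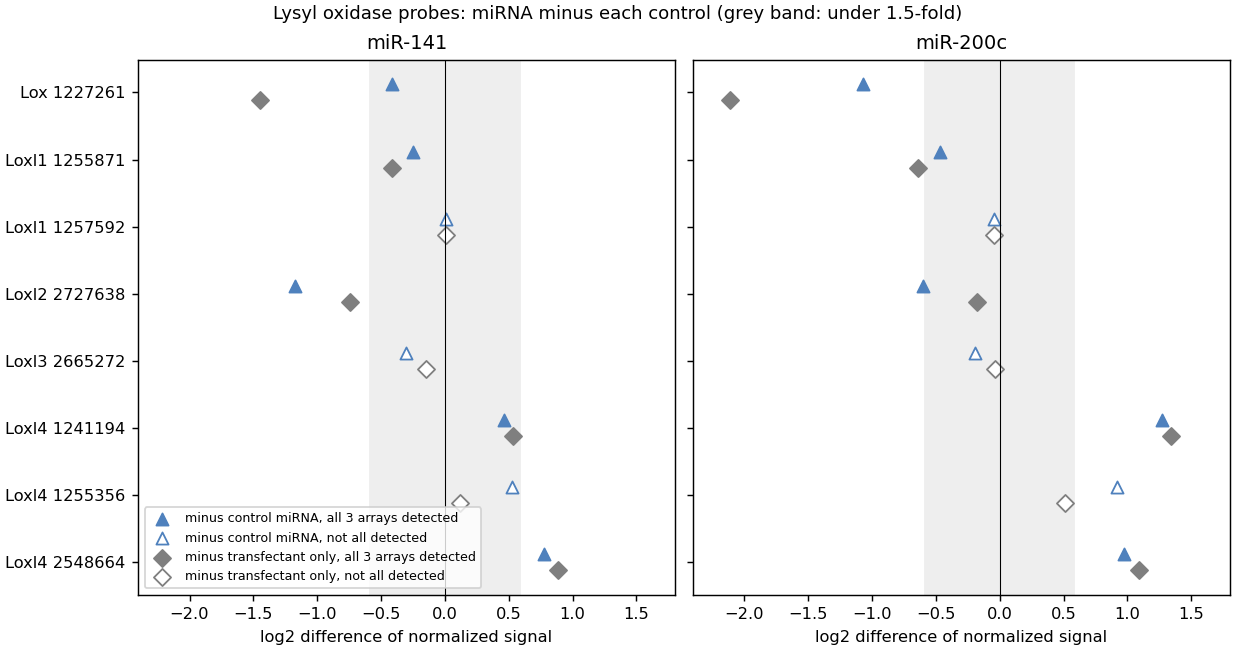
Log2 difference of each lysyl oxidase probe for miR-141 (left) and miR-200c (right), minus control miRNA (triangles) and minus transfectant only (diamonds), with the probe number after the gene and open symbols where the probe was not detected on all 3 arrays involved. Outside the grey band of 1.5-fold on both controls lie Loxl2 with miR-141 and Lox with miR-200c, both on the left side. On the right side, the brightest Loxl4 probe lies outside it with both miRNAs. The second Loxl4 probe does so with miR-200c only, and the third with neither.

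The Loxl4 promoter is shown as the start region of the member that was higher with both miRNAs. It is the 250 bases before the RefSeq start, on the minus strand of chr19:42612807-42613056 (GRCm38.p6), and 1 of the 5 members, Loxl4, matched the promoter table.
Loxl4: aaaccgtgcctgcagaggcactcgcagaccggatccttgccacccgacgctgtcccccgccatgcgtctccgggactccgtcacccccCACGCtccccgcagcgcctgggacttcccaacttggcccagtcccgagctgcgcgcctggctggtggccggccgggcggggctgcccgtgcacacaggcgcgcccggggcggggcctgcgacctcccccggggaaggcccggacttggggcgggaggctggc
The letters CACCTG, a core site of the Zeb factors, were searched on both strands and are not in this window, while 17.2% of 32851 promoter windows of the same length hold them. The hypoxia factor core was searched as ACGTG and as GCGTG, also on both strands. ACGTG had no match here and is held by 16.6% of the windows. GCGTG matched once on the opposite strand, 162 to 158 bases before the start (capitals), and is held by 28.2% of the windows. These matches describe the letters of the window only.

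The miRNAs were then set against each other, with the brightest probe of each gene. Lox was 1.58-fold higher with miR-141 than with miR-200c (log2 difference 0.66). By these probes it was 1 of 4 detected members past the 1.5-fold size, where 4.01% of 7285 genes were higher with miR-141. The call ended without background correction (0.50), with the authors' processed values (0.51) and with an offset of 50 (0.48). No member was called lower, where 4.53% of genes were. Loxl2 ran the other way at -0.57 for miR-141 minus miR-200c, just under that size. Loxl1 was at 0.22. For Loxl4 the brightest probe gave -0.20 and the AK078840 probe -0.81, so its probes agreed on the direction but only the second was past the 1.5-fold size. None of these differences could be tested.

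**Figure D3:**
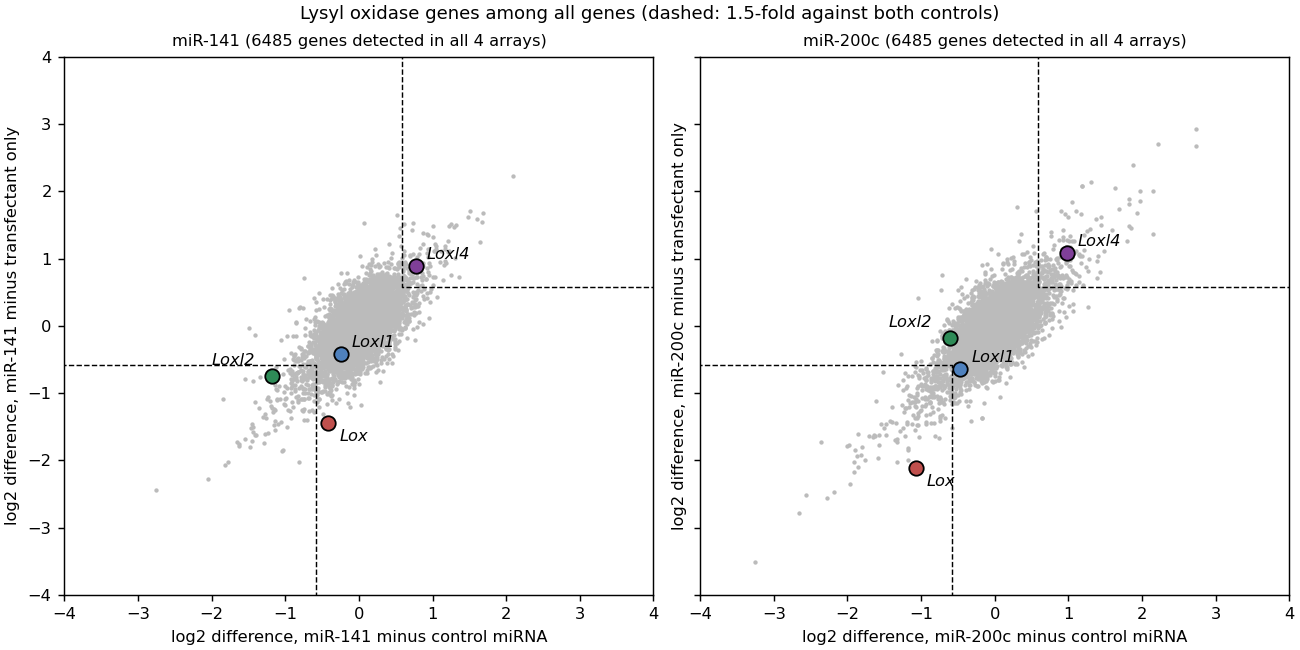
Each grey point is 1 of the 6485 genes detected on all 4 arrays, placed by its log2 difference from control miRNA (x axis) and from transfectant only (y axis), for miR-141 (left) and miR-200c (right), with the 4 detected lysyl oxidase genes in colour and dashed lines at 1.5-fold against both controls. With miR-200c, Lox lies at -1.08 and -2.11, below the bulk of the cloud, while Loxl4 lies near the diagonal on both panels.

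For each detected member, the genes with the closest pattern over the 4 arrays were found by the root mean square difference of log2 values after centring each gene on its own mean. They came from 6481 genes detected on all arrays. For Lox they were Egr2 (0.13), Trib2 (0.14) and Magee1 (0.17). For Loxl1 they were Lmo4 (0.012), Bet1l (0.016) and Hnrnpa1 (0.028), all with small ranges. For Loxl2 they were Olfm1 (0.068), Tcea3 (0.095) and Fam210b (0.098), and for Loxl4 B4galt3 (0.040), Rdm1 (0.048) and Uchl1 (0.062). Egr2, an immediate early transcription factor gene, had log2 signals of 7.06 with miR-141 and 6.43 with miR-200c, against 7.76 in control miRNA and 8.46 in transfectant only. With only 4 arrays, closeness of this kind is a description.

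Genes around the enzymes were taken from 8 lists, of which 78 of 85 genes had a named probe and 50 were detected on at least 1 array. The lists were chosen with earlier results of these data known and are no independent evidence. With miR-141, 8 of 48 considered genes (16.7%) were called lower and 0 higher, where 3.14% and 2.37% of all considered genes were. With miR-200c, 10 of 48 (20.8%) were called lower and 1 (2.08%) higher, where 4.55% and 4.07% of all considered genes were. The lower calls with each miRNA include Zeb1 and Zeb2, which the miR-200 family is best known for lowering. The median log2 difference from control miRNA was -0.15 with miR-141 and -0.27 with miR-200c, against 0.01 and -0.00 over all 7734 detected genes. Between the controls, 1 of 50 considered genes (2%) was higher and 1 (2%) lower in control miRNA, where 3.16% and 4.51% of all considered genes were. The median of these genes between the controls was -0.10, against 0.004 over all detected genes.

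Among substrates, 1 of 4 detected fibrillar collagens was called lower with miR-141 and 2 of 4 with miR-200c, where 3.14% and 4.55% of all considered genes were, and lists this short are described by their genes only. Col5a1, a chain of the collagen V that seeds fibrils, had log2 signals of 11.15 with miR-141 and 10.77 with miR-200c, against 11.84 in control miRNA and 11.86 in transfectant only, and was lower with both. Col1a1, a chain of collagen I, had 11.46 with miR-141 and 10.90 with miR-200c, against 11.99 in control miRNA and 11.59 in transfectant only, and was called with miR-200c only. Among 4 detected collagen IV chains, the basement membrane substrate of Loxl2, Col4a5 was called lower with both miRNAs, at differences from control miRNA of -0.64 for miR-141 and -0.80 for miR-200c. Elastin itself, Eln, was below detection on all arrays. Of the elastic fibre list, 1 of 6 considered genes was called lower with each miRNA. This was Emilin1, a glycoprotein of the elastin and microfibril interface, at differences from control miRNA of -1.07 (miR-141) and -1.62 (miR-200c), and from transfectant only of -1.08 and -1.64. Its log2 signal with miR-200c, 5.38, lay close to the lowest detected signal of that array, 5.37, so the size of that difference is uncertain.

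Enzymes that act beside the lysyl oxidases varied. The lysyl hydroxylase genes Plod1, Plod2 and Plod3, whose products prepare collagen lysines, were not called with either miRNA. Colgalt1, which adds galactose to hydroxylysine, was lower with miR-200c at -1.71 from control miRNA and -1.63 from transfectant only, but at -0.37 and -0.29 with miR-141. Tgm2, a transglutaminase that makes another kind of crosslink, was lower with both, by log2 differences from control miRNA of -1.17 for miR-141 and -0.70 for miR-200c.

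Genes that process, place or load the enzymes were mostly not called. Of the 3 detected propeptide proteases and enhancers, 0 were called. Among all considered genes, the shares with miR-141 were 3.14% lower and 2.37% higher, and with miR-200c 4.55% and 4.07%. At these shares, 0 calls in lists this short say little about the lists. Bmp1, which cleaves the Lox propeptide, had log2 signals of 6.76 with miR-141 and 7.09 with miR-200c, against 7.06 in control miRNA and 6.58 in transfectant only, so the arrays of both kinds overlapped. Among 3 detected scaffold genes, Fbln2 was called lower with miR-200c, at -0.60 from control miRNA and -1.07 from transfectant only. Fn1, the fibronectin gene, differed from control miRNA by -0.05 in the miR-141 array and -0.33 in the miR-200c array. Of 8 detected genes of copper supply, 0 were called with either miRNA. Atp7a, the pump that delivers copper to the secretory pathway, differed from control miRNA by -0.28 for miR-141 and -0.18 for miR-200c. Atox1, the copper chaperone that feeds this pump, was higher by 0.82 in control miRNA than with transfectant only and was named after its values were seen.

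**Figure D4:**
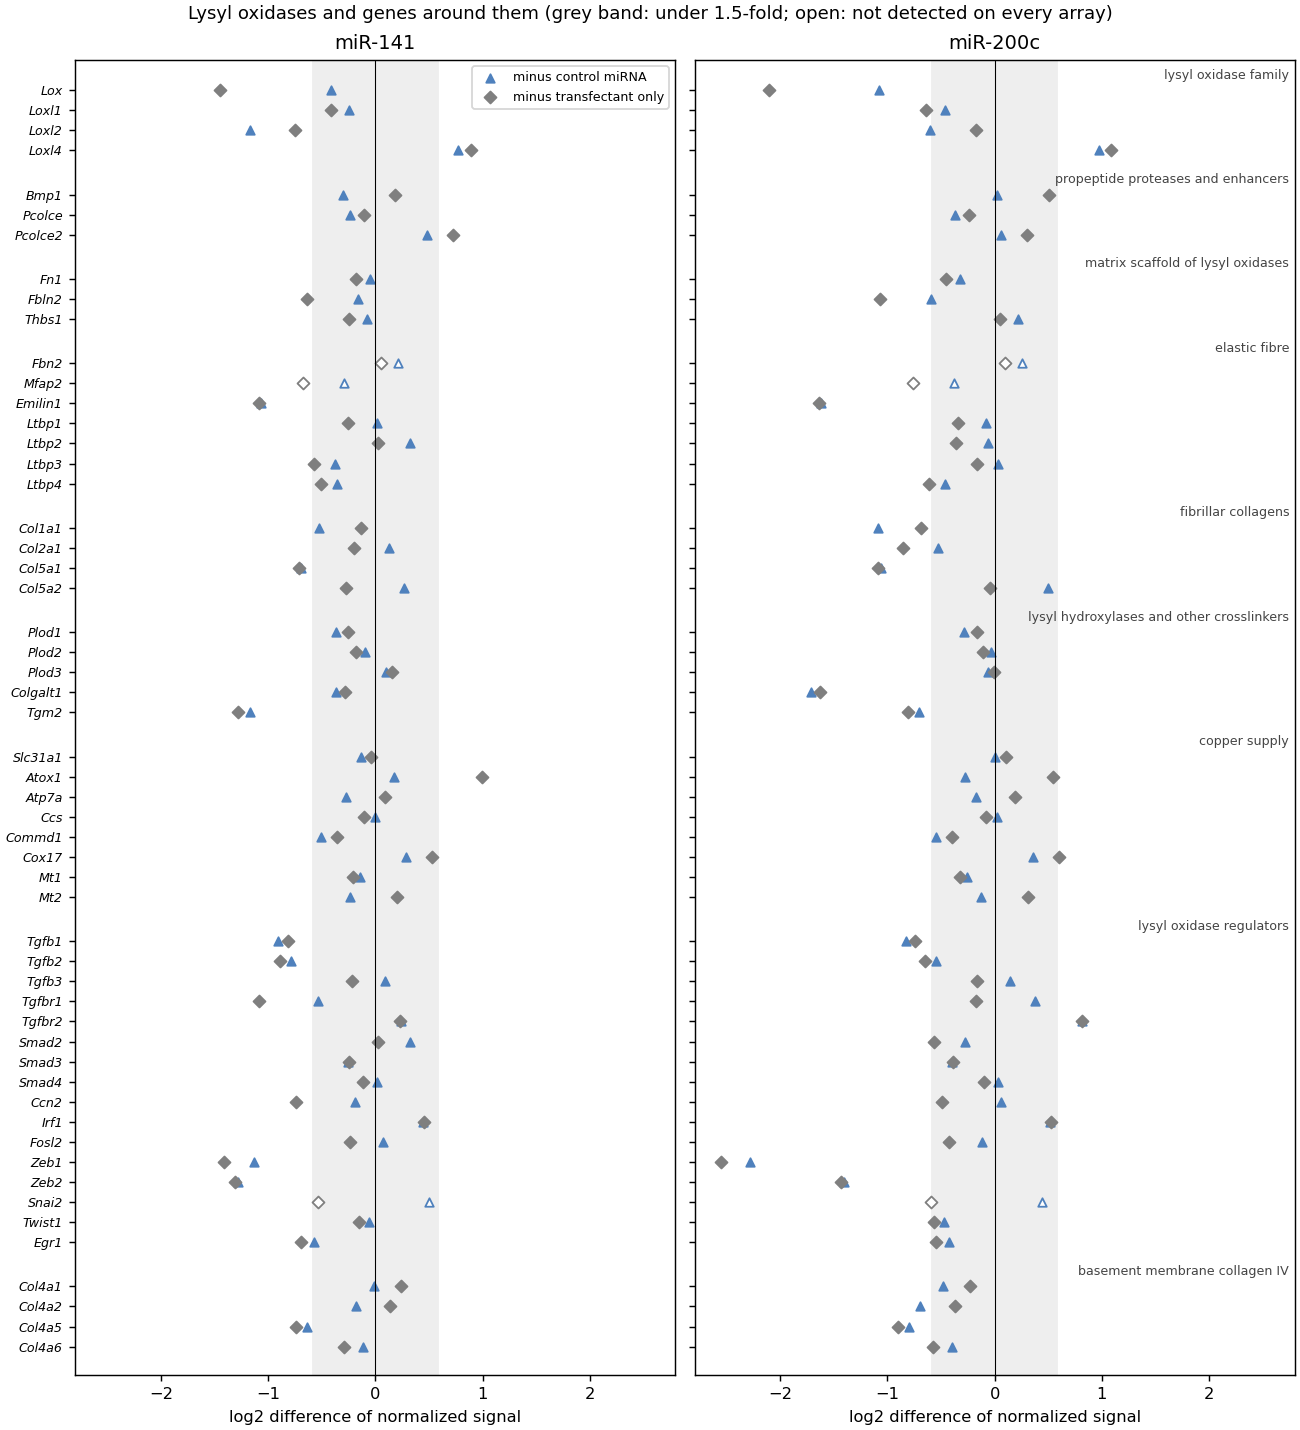
Log2 difference of the detected lysyl oxidase genes and of the detected genes in 8 lists around them, for miR-141 (left) and miR-200c (right), minus control miRNA (triangles) and minus transfectant only (diamonds); open symbols mark genes not detected on every array. Copper supply, lysyl hydroxylase and propeptide protease genes cluster in the grey 1.5-fold band on at least 1 control, while Emilin1, Tgm2, Col5a1, Col4a5, Tgfb1, Zeb1 and Zeb2 lie left of it in both panels.

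Regulators of lysyl oxidase transcripts were examined last. Of 15 considered genes, 4 were called lower and 0 higher with miR-141, and 3 lower and 1 higher with miR-200c. Over all considered genes, 3.14% were lower and 2.37% higher with miR-141, and 4.55% and 4.07% with miR-200c. Zeb1 had log2 signals of 7.64 with miR-141 and 6.50 with miR-200c, against 8.78 in control miRNA and 9.05 in transfectant only. Zeb2 had 5.63 with miR-141 and 5.51 with miR-200c, against 6.91 in control miRNA and 6.95 in transfectant only. Its signals with the miRNAs lay close to the lowest detected ones, 5.36 with miR-141 and 5.37 with miR-200c, so the sizes of its differences are uncertain. Both repressors were thus below both controls with each miRNA. Tgfb1, a ligand known to raise Lox transcripts in fibroblasts, was called lower with both, at -0.91 (miR-141) and -0.83 (miR-200c) from control miRNA. Tgfb2, named after its values were seen, was called lower with miR-141 at -0.79. The receptor gene Tgfbr2 was called higher with miR-200c at 0.82. Hif1a, Snai1 and Grhl2 were below detection on all arrays.

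**Figure D5:**
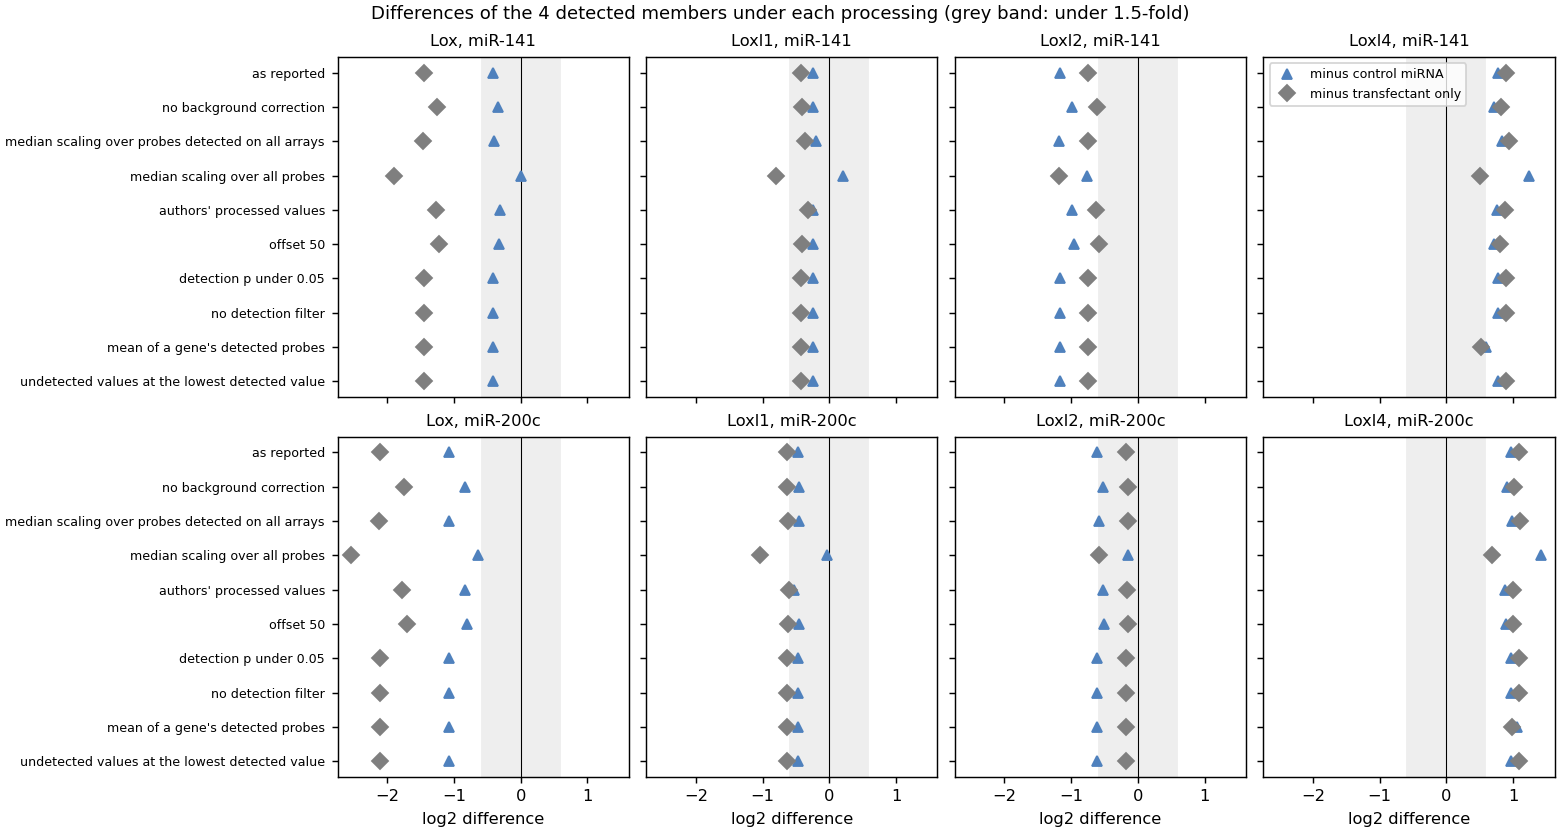
Log2 differences of the 4 detected members from control miRNA (triangles) and transfectant only (diamonds), for miR-141 (upper row) and miR-200c (lower row), under the reported processing and 9 alternatives. Lox with miR-200c, Loxl2 with miR-141 and Loxl4 with miR-200c keep both symbols outside the grey 1.5-fold band under all 9, while Loxl4 with miR-141 has a symbol inside it under 2. The settings for detection, filter and undetected values cannot move these members, and the probe mean moves only Loxl4.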

How the data were processed

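The deposited non-normalized table gave, per the file headers, each probe's average bead intensity on each array, with a detection p-value relative to that array's background. GenomeStudio is named in the submitters' processing notes, without version or settings. The authors' deposited table of processed intensity values is, column by column, a linear function of the raw signal to within 0.0113 units, and the reason for these lines is not given in the sources used here.

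Raw signals were corrected with normexp, quantile-normalized over all 4 arrays and log2-transformed after adding an offset of 16 (neqc, limma 3.58.1, R 4.3.3), which removes a shift shared by most genes. Of 46632 probes 29976 had 1 symbol, 10 several and 16646 none. A gene took its brightest probe by mean, and every member probe is given. Calls used the 1.5-fold size, since 1 array per group allows no test. The normalization, probe choice and calling were run on simulated arrays with known changes, which checks the computation and not the measured differences. Between 2 arrays a gene was considered if detected on either, with a miRNA if detected there or in both controls. Figures used Python 3.11.15 and matplotlib 3.10.9.

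Members and lists were chosen with earlier results of these data known. Named were all members, up to 4 called genes per list, 8 preset genes, and the 3 closest patterns per member. In all, 8 alternatives changed the background correction, scaling, values, offset, detection threshold or filter, probe choice and undetected values. Median scaling over all probes was added after seeing the data.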

Additional observations from a re-analysis of the deposited data

How the results depend on the processing

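The calls of Lox lower with miR-200c, Loxl2 lower with miR-141 and Loxl4 higher with miR-200c held under all 9 alternatives. Not every alternative could change them. The looser detection threshold, the missing filter and the raised undetected values could not, since the probes used were detected on every array. The mean of detected probes could not change Lox or Loxl2, which have a single probe each. Only the remaining alternatives bear on these calls. Against control miRNA, Lox with miR-200c ranged from -1.08 to -0.64, Loxl2 with miR-141 from -1.18 to -0.76 and Loxl4 with miR-200c from 0.88 to 1.42. Against transfectant only, Lox ranged from -2.55 to -1.70, Loxl2 from -1.18 to -0.59 and Loxl4 from 0.68 to 1.10. The -0.59 of Loxl2, with an offset of 50, lay only just past the 1.5-fold size. Loxl4 with miR-141 lost its call with the mean of its detected probes, at 0.59 from control miRNA and 0.51 from transfectant only, and with median scaling over all probes, at 1.24 and 0.50, which left 0 members higher. Lox, higher with miR-141 than with miR-200c, lost that call without background correction (0.50), with the authors' values (0.51) and with an offset of 50 (0.48), leaving 0 members. Loxl2 passed the size for miR-141 minus miR-200c with median scaling over probes detected on all arrays (-0.59) and over all probes (-0.61), which made 1 member lower.

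Median scaling over all probes, most of them undetected, shifted the median of all detected genes by -0.75 between the controls and by 0.38 (miR-141) and 0.37 (miR-200c) relative to control miRNA. It called 3 members lower between the controls. Relative to that shift Lox was at -1.15 between the controls and, from control miRNA, at -0.37 for miR-141 and -1.01 for miR-200c. Loxl1 was at -0.17 relative to that shift with miR-141, and the values of Lox and Loxl1 before subtracting it were 0.01 and 0.21. Loxl4 with miR-141, which lost its call here, was at 0.87 from control miRNA and 0.85 from transfectant only relative to the median of all detected genes. Under this setting the surrounding genes had 4 lower and 1 higher with miR-141, 6 lower and 0 higher with miR-200c, and 42 lower and 0 higher between the controls. Between the controls, 2 of these genes were higher with the authors' values, and 0 were lower with an offset of 50, with median scaling over detected probes or with undetected values raised to the lowest detected one. The share of higher genes among all calls between the controls was 41.1% as reported, 83.0% and 0.094% with median scaling over detected and over all probes, and 56.8% with the authors' values; for miR-141 it was 42.9% and 54.3% with all probes. All genes called either way numbered 396 with miR-141, 621 with miR-200c, 622 between the miRNAs and 576 between the controls. Without background correction the first of these was 240 and those for the miRNA pair and the controls 347 and 173. With an offset of 50 the 4 counts were 217, 383, 322 and 152. With the authors' values they were 242, 417, 369 and 236, and with median scaling over all probes 186, 312, 617 and 5336. Causes were not tested. No paired analysis was possible because each group held 1 array.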
